A study of Arabidopsis thaliana with 4 samples.

Results

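Mitochondrion-encoded genes were taken as every row of the deposited expression table whose Arabidopsis locus code starts with ATMG, the code of the mitochondrial genome. There were 146 such rows among 33602. The code alone picked them and no measured value entered the rule, though earlier results of these data were known when it was set. The values came from RNA sequencing of the excised last 3 mm of the root, from wild-type Col-0 seedlings of Arabidopsis thaliana that were 5 days old. Seedlings had been moved to fresh medium without narciclasine (control) or to medium with 0.5 µM narciclasine, and root tips were collected after 2 h or 12 h. Narciclasine is an alkaloid of daffodils and their relatives that blocks protein synthesis on cytosolic ribosomes. Each of the 4 groups (control 2 h, narciclasine 2 h, control 12 h and narciclasine 12 h) held 1 library, so nothing below was replicated and every comparison is between libraries. The root tip was sampled whole, so fewer cells of a type and less RNA per cell cannot be told apart.

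The plant mitochondrial genome encodes a minority of the organelle's proteins. They are subunits of respiratory complexes I (nad genes), III (cob), IV (cox) and V (atp), proteins that attach heme to cytochrome c (ccm), some ribosomal proteins (rpl and rps), a splicing maturase and a membrane transporter, together with the ribosomal RNAs (rrn). All other subunits come from the nucleus. Many transcripts are edited, with C changed to U at set positions, and nad1, nad2 and nad5 are joined from separately transcribed pieces, so that several rows can hold parts of one gene. In Col-0, chromosome 2 carries a large insertion of mitochondrial DNA near its centromere, with sequence nearly identical to the genes in the organelle. A sequenced read from such a stretch can belong to either genome.

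The files pair no code with a name. A list of 41 codes was used for the known genes, and it was set against the RefSeq TAIR10.1 assembly, whose build may differ from the one the authors used. The base length of the row, as recovered from its values, equalled that of the annotated gene for 20 codes, and for another 13 the annotation of a nuclear gene names the code as its closest match. Those 33 are given by name. A further 8 codes passed neither check and are given by code, with the class the list puts them in. The other 105 rows have no name here and are called unnamed frames. They were not shown to be coding: ATMG00190 has a recovered length of 74 bases, and transfer RNA genes among them were not identified here.

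How close the nuclear copies are can be seen where a copied gene differs from the mitochondrial one by a single base. In each pair below, 30 bases of the mitochondrial gene and of its chromosome 2 copy are printed on the strand of the gene in TAIR10.1, and the capital marks the base that differs. Positions in the substitutions are counted from 1 at the first base of the coding sequence of the row, with the mitochondrial base first. The pairs are for nad7 (ATMG00510, MT:239362-239391, minus strand, copy at chr2:3394393-3394422, plus strand, G1058A), nad5 (ATMG00513, MT:236046-236075, plus, copy at chr2:3397711-3397740, minus, C878T), cox2 (ATMG00160, MT:6393-6422, plus, copy at chr2:3347080-3347109, plus, G144T), ccmFN1 (ATMG00830, MT:316052-316081, plus, copy at chr2:3297929-3297958, plus, C54T) and rpl2 (ATMG00560, MT:221789-221818, minus, copy at chr2:3411972-3412001, plus, G807A).
nad7, mitochondrial: tcgtccctaccgtcGtaaaataagagcacc
nad7, chromosome 2: tcgtccctaccgtcAtaaaataagagcacc
nad5, mitochondrial: tgcaggagctacgaCgtcattccttgcggc
nad5, chromosome 2: tgcaggagctacgaTgtcattccttgcggc
cox2, mitochondrial: ttcttcctcattctGattttggttttcgta
cox2, chromosome 2: ttcttcctcattctTattttggttttcgta
ccmFN1, mitochondrial: tttccgggtcttttCgttgcattcacttac
ccmFN1, chromosome 2: tttccgggtcttttTgttgcattcacttac
rpl2, mitochondrial: tcgaagccgaagacGgatcaaggtaacttg
rpl2, chromosome 2: tcgaagccgaagacAgatcaaggtaacttg
None of the 5 positions is an annotated editing site. Most of nad7, nad5, ccmFN1 and rpl2 was the same letter for letter in both genomes. Of the 50-base stretches of the annotated gene, 94.7% of those of nad7, 96.3% of those of this nad5 row, 95.5% of those of ccmFN1 and 89.4% of those of rpl2 were also found in the nuclear genome. For cox2 it was 18.5%.

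Mitochondrial rows were mostly empty. Of the 146 rows, 53 (36.3%) were above 0 in at least 1 library, against 72.8% of 33323 nuclear rows and 59.4% of 133 chloroplast rows. Only 26 were above 0 in all 4 libraries, 17 were above 0 in 1 library alone, and 93 were at 0 throughout. Rows at 0 had no recovered reads, and the exact 95% Poisson interval of a count of 0 reaches up to 3.69 reads. Among the rows above 0, 27 never had more than 3 recovered reads in a library and 16 rested on a single recovered read in the whole experiment. For rows above 0 in 1 library alone, recovered reads and length can both be too low by a common whole factor. Values were deposited as RPKM, which divides reads by the length of the row in kilobases and by library size in units of 1000000 reads, and whole reads were recovered from them. Library sizes were 14541412 reads for control 2 h, 14244108 for narciclasine 2 h, 11880278 for control 12 h and 14724075 for narciclasine 12 h.

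The named genes were detected more widely than the unnamed frames. Of 24 rows of respiratory complexes, 19 (79.2%) were above 0 in at least 1 library and 12 in all 4. The ribosomal proteins had 3 of 7 above 0 (42.9%), the list's ribosomal RNAs 2 of 3, the ccm genes 3 of 5, and the maturase and transporter codes 1 of 2. Of the 105 unnamed frames 25 (23.8%) were above 0 and 9 were so in all 4 libraries. Within the respiratory complexes, all 3 complex IV rows had reads in every library, whereas the single complex III row, cob (ATMG00220, apocytochrome b), was at 0 in each.

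**Figure D1:**
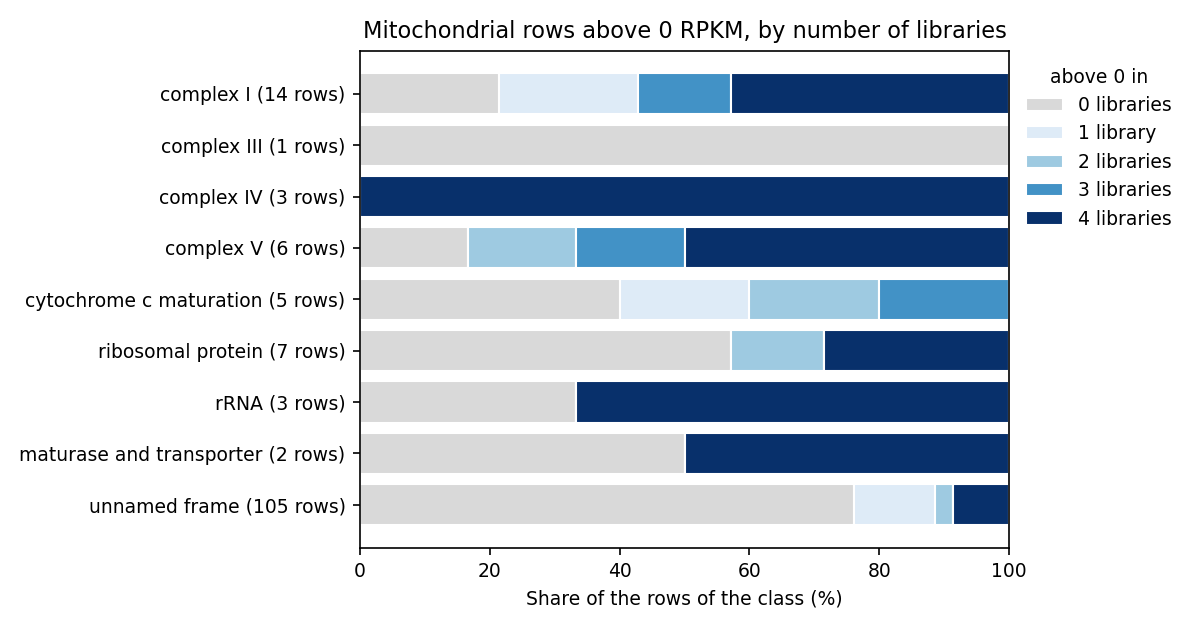
Share of the rows of each class (horizontal axis, %) by the number of libraries in which the row was above 0 RPKM, from 0 (grey) to 4 (dark blue). Complex IV had 3 of 3 rows above 0 in all 4 libraries, and 80 of 105 unnamed frames were at 0 in every library.

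Together the 146 rows held 1977 reads in control 2 h, 1725 in narciclasine 2 h, 1928 in control 12 h and 2580 in narciclasine 12 h. As a share of the library this was 0.0136% (95% exact binomial interval 0.0130% to 0.0142%), 0.0121% (0.0115% to 0.0127%), 0.0162% (0.0155% to 0.0170%) and 0.0175% (0.0169% to 0.0182%) in the same order. Ribosomal RNA rows took 81.6% to 90.6% of those reads. Without them 363, 297, 274 and 243 reads remained, a share of 0.00250%, 0.00209%, 0.00231% and 0.00165%. All intervals here and below cover counting error alone, since each group held 1 library. They treat reads as independent, which reads without molecular identifiers need not be, so they can be too narrow. At these counts most single mitochondrial genes cannot be compared between libraries, and 10 of the 146 rows reached 1 CPM (1 read for each 1000000 of the library) in at least 1 library.

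The small-subunit ribosomal RNA rrn18 (ATMG01390) was the highest row per length. Its RPKM was 38.3 in control 2 h, 34.0 in narciclasine 2 h, 45.5 in control 12 h and 46.5 in narciclasine 12 h, from 1079, 937, 1046 and 1324 reads. Both 12 h libraries were above both 2 h libraries. The next row, ATMG00020, which the list assigns to the large-subunit ribosomal RNA and the annotation does not name, had 14.3, 13.4, 19.9 and 26.8 RPKM in the same order (535, 491, 608 and 1013 reads). It was again highest in narciclasine 12 h. The ratio of the RPKM of rrn18 to that of ATMG00020 was 2.68 in control 2 h, 2.53 in narciclasine 2 h, 2.28 in control 12 h and 1.73 in narciclasine 12 h. The third code the list puts in this class, ATMG01380, was at 0 in all 4 libraries.

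Complex I, the NADH dehydrogenase that passes electrons to ubiquinone, had 11 of 14 rows above 0. Its highest row by mean RPKM was nad9 (ATMG00070), a subunit of the matrix arm, at 1.68 RPKM in control 2 h, 2.21 in narciclasine 2 h, 3.08 in control 12 h and 1.07 in narciclasine 12 h (14, 18, 21 and 9 reads). Next came nad4L (ATMG00650), a small membrane subunit, at 1.36, 1.39, 2.78 and 0.448 RPKM on 6, 6, 10 and 2 reads. For both, control 12 h was the highest library and narciclasine 12 h the lowest. ATMG01120, which the list assigns to a piece of a complex I gene, had 2.02, 1.54, 0.617 and 0.498 RPKM on 8, 6, 2 and 2 reads. One of the nad5 rows (ATMG00060) held 6, 10, 1 and 9 reads, with control 12 h lowest, and nad7 (ATMG00510) held 4, 9, 6 and 5. The nad1 row ATMG00516 and the nad2 row ATMG01320 held at most 4 reads in any library, as did the nad5 row ATMG00513, and nad4 (ATMG00580) had a single read in narciclasine 12 h. ATMG00285, which the list assigns to complex I, had 1 read, in control 12 h. The rows of nad3 (ATMG00990) and of another nad1 piece (ATMG01275) were at 0 throughout, as was ATMG00270, which the list also assigns to complex I.

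The shortest row shows how far a single read can go on this scale. ATMG00665 is 22 bases long, the length of an annotated exon of nad5 (MT:360107-360128, plus strand), printed whole for that reason: gatatgatgattggtttaggta. It had 1 read in narciclasine 2 h and 0 in the other libraries. That read gave 3.19 RPKM, above the RPKM of nad9 in any of the 4 libraries.

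Complex IV, cytochrome c oxidase, was detected at low levels in every library. Its catalytic subunit cox1 (ATMG01360) had 0.564 RPKM in control 2 h, 0.665 in narciclasine 2 h, 1.01 in control 12 h and 0.729 in narciclasine 12 h, from 13, 15, 19 and 17 reads. The copper-binding subunit cox2 (ATMG00160) had 1.05, 0.717, 0.645 and 0.347 RPKM on 12, 8, 6 and 4 reads, the lowest again in narciclasine 12 h. The row of cox3 (ATMG00730) had 6, 5, 4 and 4 reads.

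Complex V, the ATP synthase, held the highest protein-coding row of the mitochondrial genome, atp9 (ATMG01080), a subunit of the proton-carrying ring. It stood at 6.41 RPKM in control 2 h, 6.55 in narciclasine 2 h, 6.01 in control 12 h and 2.83 in narciclasine 12 h (47, 47, 36 and 21 reads). The first 3 libraries lay close together and narciclasine 12 h was below them. The row spans 504 bases against an annotated coding length of 225. The peripheral stalk subunit atp4 (ATMG00640) had 2.14, 1.70, 1.45 and 1.52 RPKM on 18, 14, 10 and 13 reads. ATMG01170, which the list assigns to complex V, had 5, 4, 3 and 5 reads, whereas the rows of atp1 (ATMG01190) and atp6 (ATMG00410) had at most 3 in any library and atp8 (ATMG00480) had none.

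Genes of cytochrome c maturation were barely detected. Their 5 rows held 4, 2, 1 and 6 reads in control 2 h, narciclasine 2 h, control 12 h and narciclasine 12 h together. The heme exporter subunit ccmB (ATMG00110) had 2, 0, 0 and 4 of them and ccmFN2 (ATMG00960), which acts in joining heme to the protein, had 2, 0, 1 and 2. The 2 other reads were those of ccmFN1 in narciclasine 2 h, and ccmC (ATMG00900) and ccmFC (ATMG00180) had none. ATMG00520, which the list assigns to the maturase, had 5, 2, 5 and 2 reads, and ATMG00570, assigned to the transporter, had none.

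Among ribosomal proteins the reads lay on rps3 and rpl16. The small-subunit protein rps3 (ATMG00090) had 3.00 RPKM in control 2 h, 2.31 in narciclasine 2 h, 2.97 in control 12 h and 2.24 in narciclasine 12 h (73, 55, 59 and 55 reads). Both narciclasine libraries were below both controls. The large-subunit protein rpl16 (ATMG00080) had 2.29, 2.47, 2.96 and 1.89 RPKM on 18, 19, 19 and 15 reads. The large-subunit protein rpl2 (ATMG00560) had 4, 0, 1 and 0 reads, while rpl5 (ATMG00210), rps4 (ATMG00290), rps7 (ATMG01270) and rps12 (ATMG00980) were at 0 in all 4 libraries.

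Of the unnamed frames, ATMG00660 was the highest, at 5.81 RPKM in control 2 h, 3.74 in narciclasine 2 h, 2.81 in control 12 h and 3.47 in narciclasine 12 h (38, 24, 15 and 23 reads). Only rrn18, ATMG00020 and atp9 had a higher mean RPKM. ATMG00690 had 3.04, 1.26, 1.51 and 1.22 RPKM on 32, 13, 13 and 13 reads, so that control 2 h stood above the other libraries. ATMG01000 had 7, 7, 11 and 9 reads and ATMG01370 had 8, 2, 4 and 3. The next frames by mean RPKM, ATMG01130, ATMG00670, ATMG00030 and ATMG01200, had at most 9 reads in any library. ATMG00400 and ATMG00190, the last of the 10 highest, had at most 2. The median of the mean RPKM was 0 over the unnamed frames, 0 over the ribosomal proteins and 0.228 over the respiratory rows.

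**Figure D2:**
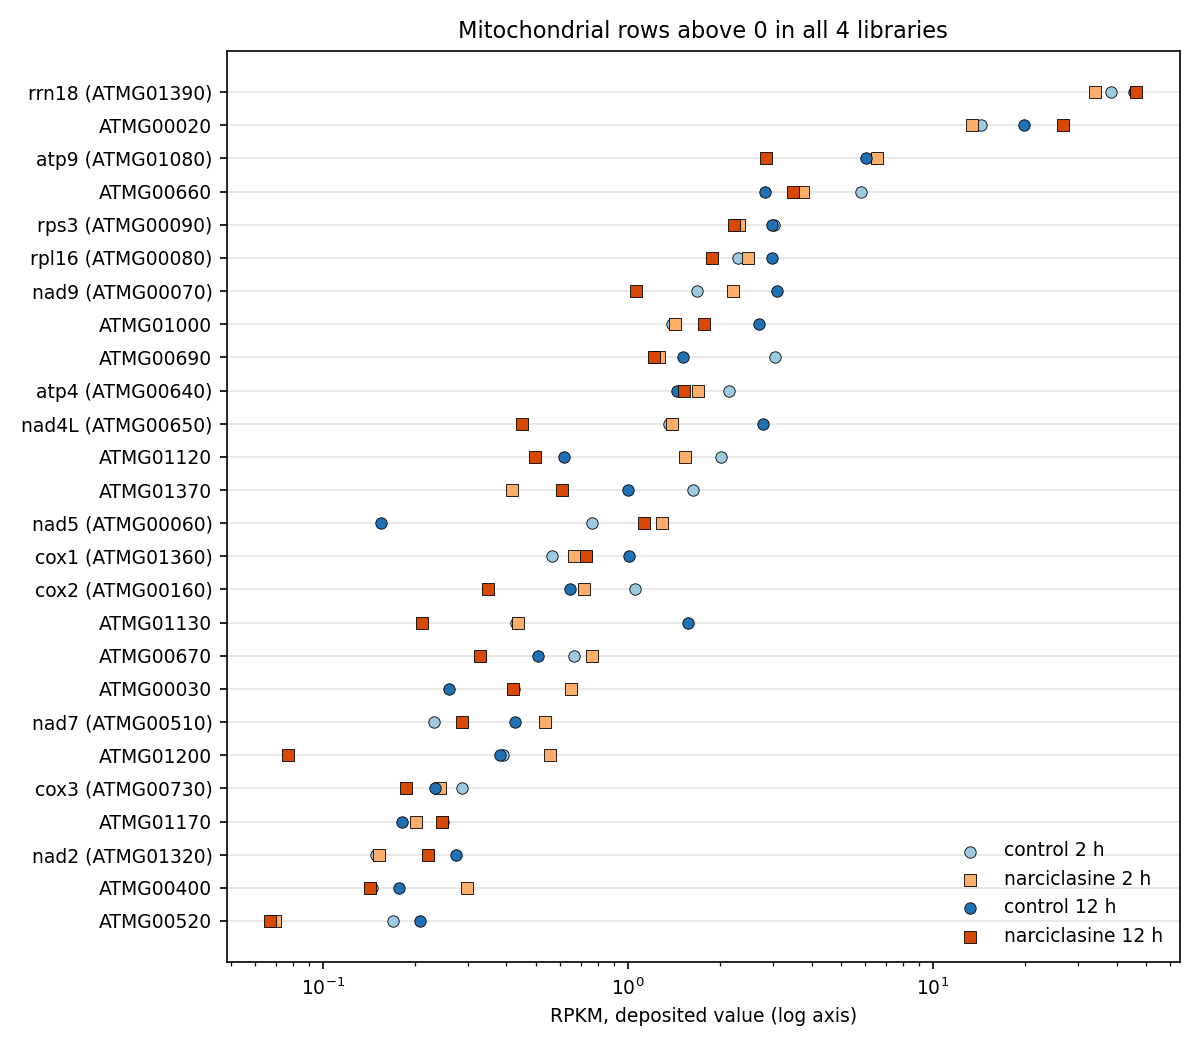
RPKM (horizontal log axis) of the 26 mitochondrial rows above 0 in all 4 libraries, ordered by mean, with circles for controls and squares for narciclasine, pale at 2 h and dark at 12 h. Rows stand by code alone where the annotation gave no check of the name. The ribosomal RNA row rrn18 lay between 34.0 and 46.5 RPKM and atp9 between 2.83 and 6.55.

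Among the checked rows, those wholly repeated in the nuclear genome were most often at 0, but the checks themselves shaped this split. A row at 0 gave no recovered length, so it could be checked only where the note of a nuclear gene names it. Zeros among checked rows without a nuclear copy were thus all but excluded in advance. Of the unchecked codes, ATMG01380 (0% of its 50-base stretches nuclear), ATMG00570 (96.5%) and ATMG00270 (100%) were at 0 throughout, and the others had reads. Of the 33 checked rows, 32 were long enough for 50-base stretches. In 16 of them every 50-base stretch of the annotated gene was also found in the nuclear genome, and 10 of these were at 0 in all 4 libraries and 3 above 0 in all 4, with a median of 0 reads over the 4 libraries together. In 10 rows some of the stretches were found there, and 0 of these rows were at 0 throughout and 5 were above 0 in all 4. In 6 rows no stretch was found there, and again 0 were at 0 throughout and 5 were above 0 in all 4, with a median of 40.5 reads. Those 6 were cox1, nad9, nad4L, atp4, ccmB and the nad5 row ATMG00060. The same 16 rows were wholly repeated with stretches of 36, 75 or 100 bases. How the authors placed reads that match several sites is not given in the sources used here, nor are the read length and the build, and the part of the nuclear copies in the zeros was not tested.

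The row atp9 was among the wholly repeated rows with reads, with all of its annotated coding sequence repeated in the nucleus and 151 reads in all. The others above 0 in all 4 libraries were cox3 and the nad2 row ATMG01320. The cox3 row spans 1447 bases against an annotated coding length of 798. For cox3 and atp9 the rest of the row was not compared with the nuclear genome. Among rows not wholly repeated, ccmB had the fewest reads of those with no copied stretch, 6 in all. The annotation lists 35 major C-to-U editing sites in ccmB, against 0 in cox1, 7 in nad9, 8 in the nad5 row ATMG00060, 9 in atp4 and 10 in nad4L. Their mean RPKM was 0.165 for ccmB, 0.742 for cox1, 2.01 for nad9, 0.835 for the nad5 row, 1.70 for atp4 and 1.49 for nad4L. The part of editing in these levels was not tested.

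**Figure D3:**
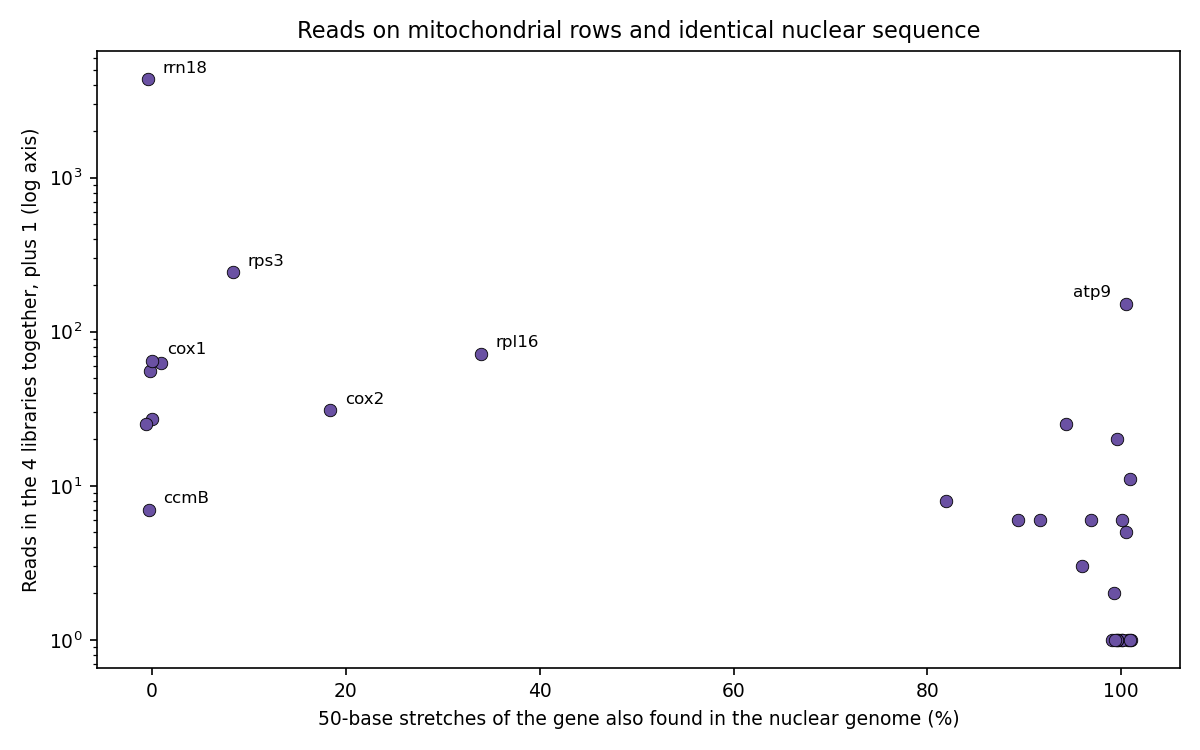
Share of the 50-base stretches of each annotated gene that were also in the nuclear genome (horizontal axis, %, points shifted slightly sideways at random to reduce overlap) against the reads of the row in the 4 libraries together plus 1 (vertical log axis), for 32 rows. The 10 rows with 0 reads all lay at 100%, where atp9 had 151 reads. A row with 0 reads could enter only through a nuclear match, so the place of these rows was largely fixed by the choice of rows.

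Reads were present on nuclear rows that hold copies. On chromosome 2, 33 rows held copied stretches of a listed gene. They had 986 reads in control 2 h, 817 in narciclasine 2 h, 735 in control 12 h and 715 in narciclasine 12 h, more than the mitochondrial rows without ribosomal RNA in each library. Counts are for whole rows, which can include sequence outside the copied stretches. The row AT2G07783, which holds most of ccmFN1, had 404, 367, 331 and 382 reads, whereas ccmFN1 itself had 0, 2, 0 and 0. AT2G07709, which holds most of nad7, had 213, 190, 155 and 140 reads, AT2G07711, of nad5, had 118, 87, 96 and 58, AT2G07717, of nad4, had 115, 93, 78 and 61, and AT2G07715, of rpl2, had 65, 35, 29 and 17. Per length, AT2G07783 had 12.0 to 13.0 RPKM and AT2G07709 had 1.57 to 2.42. For cob, the copy AT2G07727 had 7, 1, 4 and 4 reads. For atp8, nad3, rps12 and ccmC, by contrast, both the mitochondrial row and the longest copy (AT2G07707, AT2G07751, AT2G07675 and AT2G07771) were at 0 in all 4 libraries. These rows are therefore uncertain as measures of the organelle: reads of either genome may have been counted on one row, on the other or on none.

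The unnamed frames were split by the annotation's notes, which do not depend on reads. Of 36 frames that the notes tie to a nuclear match or pseudogene, 6 were above 0 and 1 was so in all 4 libraries. Of the 69 others, 19 were above 0 and 8 were so in all 4.

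To compare libraries, reads were scaled by the trimmed mean of M values over the whole table, and a row was called higher or lower for a ratio of 2-fold or more whose exact 95% counting interval excluded 1, among 19381 rows with 1 CPM or more in at least 1 library. In narciclasine 2 h against control 2 h, 0 of the 10 mitochondrial rows compared were called higher, where 4.74% of all rows were, and 1 was called lower, where 2.06% were. It was the unnamed frame ATMG00690, with 13 reads against 32 (2.47-fold lower, 1.26 to 5.14). Control 12 h also had 13 reads on this row, and with it as the control 0 rows were called lower. By ratio 3 of the 10 were above 1 and 7 below. Summed over the class, respiratory rows had 147 reads against 150, a ratio of 0.975 (0.771 to 1.23), with complex I at 54 against 43 and complex V at 65 against 76. Ribosomal proteins had 74 against 95 (ratio 0.775, 0.564 to 1.06) and unnamed frames 72 against 109 (0.657, 0.481 to 0.893). Without ATMG00690 and ATMG00660, left out after their values were seen, the unnamed frames had 35 against 39, a ratio of 0.893 (0.549 to 1.45). The median log2 ratio of the 10 rows was -0.17, beside 0.00 over all rows compared.

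In narciclasine 12 h against control 12 h, 2 of the 10 rows were called lower, where 16.5% of all rows were, and 0 were called higher, where 11.6% were. They were nad9, with 9 reads against 21 (2.99-fold lower, 1.31 to 7.41), and atp9, with 21 against 36 (2.20-fold lower, 1.25 to 3.96). Without the rows copied in the nucleus, which leaves out atp9, 1 row was called lower. The row of nad4L was under 1 CPM and so outside the calls. It had 2 reads against 10, a ratio of 0.156 (0.0166 to 0.733). The atp4 row, in the same complex as atp9, had 13 against 10 and was not called. Summed respiratory rows had 101 reads against 126, a ratio of 0.626 (0.477 to 0.820), and the ratio was 0.611 for complex I, 0.673 for complex IV and 0.612 for complex V. Counting checked codes alone, the respiratory ratio was 0.612 (0.462 to 0.808). Without nad9, atp9 and nad4L, 3 rows picked after their values were seen, the respiratory rows had 69 reads against 59. That was a ratio of 0.913 (0.636 to 1.32). Leaving out lower rows had to raise the ratio, and the nad5 row ATMG00060, with 9 reads against 1, was kept. Ribosomal proteins had 70 against 79 (0.692, 0.494 to 0.967) and unnamed frames 64 against 63 (0.793, 0.551 to 1.14). All rows without ribosomal RNA had 243 against 274 (0.692, 0.580 to 0.826). The median log2 ratio of the 10 rows was -0.41, beside -0.04 over all rows compared.

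Ribosomal RNA rows went the other way at 12 h. The class had 2337 reads in narciclasine 12 h and 1654 in control 12 h, a ratio of 1.10 (1.04 to 1.18). Within it ATMG00020 had 1013 reads against 608 (1.30-fold higher, 1.18 to 1.44), while rrn18 had 1324 against 1046 (1.01-fold lower, 0.932 to 1.10). At 2 h the class was lower with narciclasine, 1428 reads against 1614 (0.880, 0.819 to 0.946). None of these ratios reached 2-fold.

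**Figure D4:**
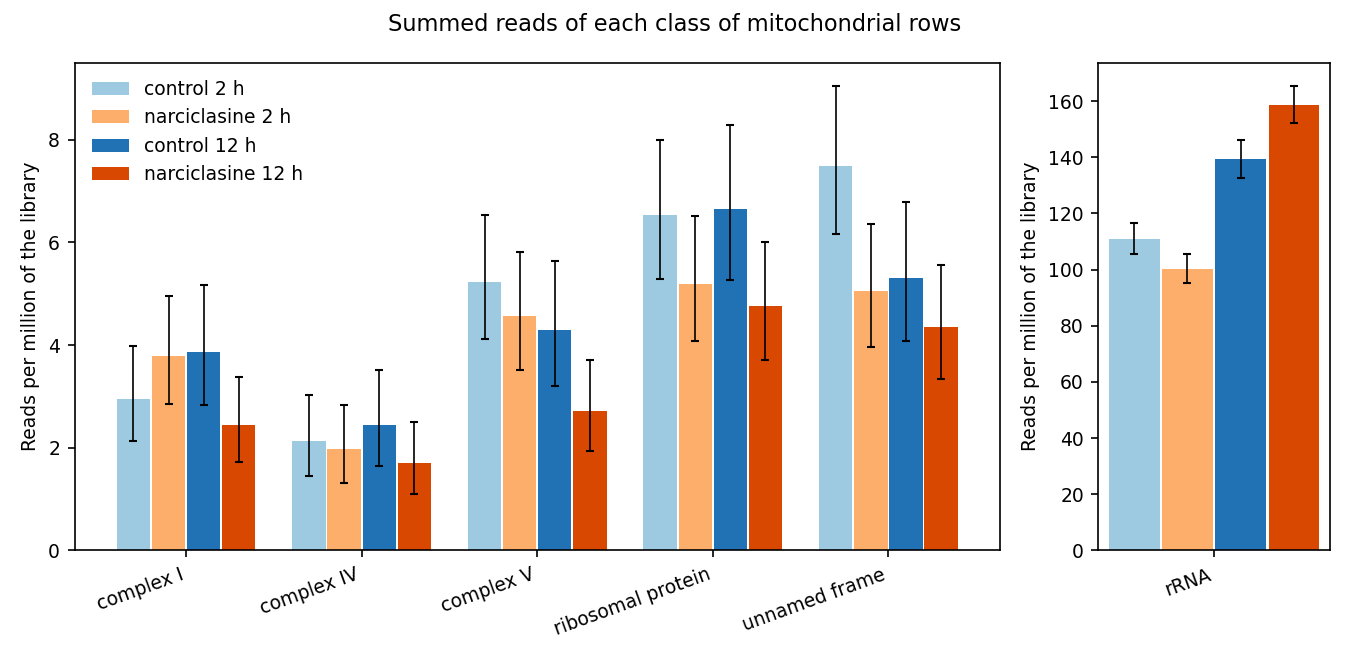
Summed reads of each class per 1000000 reads of the library (vertical axis) in the 4 libraries, with ribosomal RNA on its own axis. Error bars are exact 95% Poisson intervals and cover counting error alone. Complex V stood at 2.72 in narciclasine 12 h and 4.29 in control 12 h, and ribosomal RNA at 159 and 139.

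**Figure D5:**
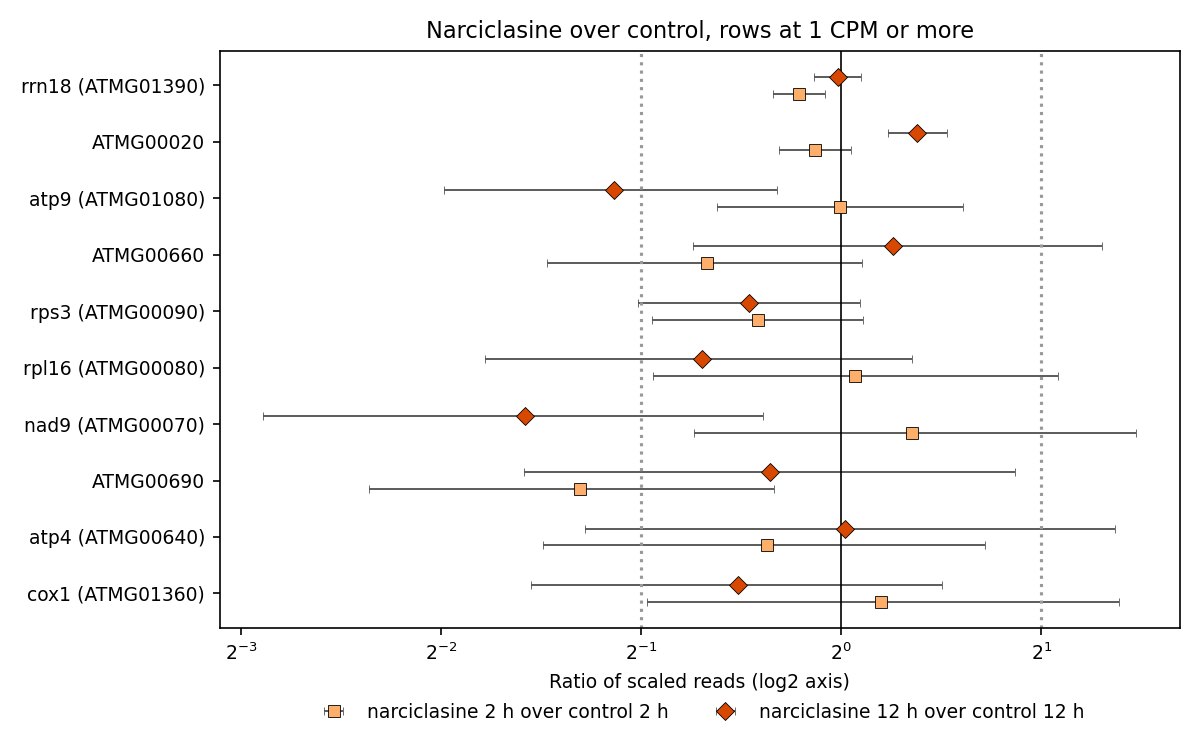
Ratio of scaled reads, narciclasine over control (horizontal log2 axis), at 2 h (squares) and 12 h (diamonds) for the 10 mitochondrial rows at 1 CPM or more, with exact 95% counting intervals. Dotted lines mark 2-fold either way. The diamonds of nad9 and atp9 and the square of ATMG00690 lay beyond the left dotted line with intervals below 1.

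The untreated libraries also differed from each other. In control 12 h against control 2 h, 1 of the 10 rows was called lower, where 1.68% of all rows were, and 0 were called higher, where 4.33% were. It was ATMG00660, with 15 reads against 38 (2.01-fold lower, 1.08 to 3.94). With an assumed biological coefficient of variation of 0.2 it was 0 rows. The ribosomal RNA class had 1654 reads against 1614 in a smaller library, a ratio of 1.29 (1.20 to 1.38). Summed respiratory rows had a ratio of 1.06 (0.827 to 1.35).

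In narciclasine 12 h against narciclasine 2 h, ATMG00020 was called higher (2.04-fold, 1.83 to 2.27) and atp9 lower (2.27-fold, 1.33 to 4.00), 1 row each of 10, where 8.01% of all rows were called higher and 15.9% lower. With library size scaling 0 rows were called higher, and without copied rows, which leaves out atp9, 0 were called lower. Ribosomal RNA had a ratio of 1.61 (1.51 to 1.73) and the respiratory rows one of 0.678 (0.521 to 0.879). This comparison and that with control 12 h share the narciclasine 12 h library, which held the lowest count of atp9 of the 4. In each comparison the number of mitochondrial rows called was too small to read against the share called over all rows.

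The nuclear-encoded partners of these complexes were far higher per length and none was called in any comparison. Over all rows compared, narciclasine against its control had 2.06% called lower and 4.74% higher at 2 h. At 12 h the shares were 16.5% and 11.6%. A list of 27 nuclear respiratory genes, with subunits of complexes I to V and cytochrome c, had mean RPKM from 76.2 for SDH2-2 (AT5G40650), an iron-sulphur subunit of succinate dehydrogenase, to 464 for CYTC-1 (AT1G22840), cytochrome c. The highest mitochondrial protein-coding row, atp9, had a mean of 5.45. Whether poly(A) RNA was selected is not given, and reads of copied stretches may not have been counted. The contrast in RPKM therefore need not follow transcript levels. The median log2 ratio of the 27 was -0.17 at 2 h and -0.39 at 12 h for narciclasine against its control, beside 0.00 and -0.04 over all rows compared. Most of the 27 were lower at 12 h, among them every listed gene of complexes I, IV and V. Only SDH1-1 (AT5G66760), SDH2-1 (AT3G27380), AT5G13440, CYTC-1 and CYTC-2 (AT4G10040) were higher. ATP5 (AT5G13450), a subunit of the ATP synthase, had 283 RPKM in narciclasine 12 h and 455 in control 12 h. CYTC-2, the second cytochrome c gene, had 193 and 111.

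The RNA polymerases that transcribe organelle genomes are nuclear-encoded and single-subunit, like those of bacteriophages. The mitochondrial one, MGP3 (AT1G68990), had 7.98 RPKM in control 2 h, 12.7 in narciclasine 2 h, 6.87 in control 12 h and 24.7 in narciclasine 12 h. It was called higher at 12 h (3.47-fold, 3.05 to 3.97) and stood 1.55-fold higher at 2 h (1.36 to 1.76), under the threshold. A related gene, AT5G15700, had 4.54, 6.66, 3.77 and 14.3 RPKM and was likewise called higher at 12 h (3.67-fold, 3.10 to 4.36). SCA3 (AT2G24120), which transcribes the chloroplast genome, had 3.61, 3.82, 3.02 and 4.92 RPKM and was not called (1.57-fold higher at 12 h, 1.27 to 1.96). In each of these 3 genes narciclasine 12 h was the highest library by RPKM.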

How the data were processed

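RNA-seq libraries, 1 for each of 4 groups, were made by a standard Illumina protocol from total RNA, per the labels' protocols. Whether ribosomal RNA was removed or poly(A) RNA selected is not given in the sources used here, nor are read length, strand and the rule of counting. Bowtie 0.12.2 and edgeR are named, per the submitters' processing notes, with mm8 as the build. That is a mouse build, so the one behind the values is unclear. The deposited values are RPKM, computed by the authors, per the file headers, and the single-library tables differed from the series table by at most 4.95e-07 RPKM. The design had allowed for reads and, failing them, RPKM. Library sizes were recovered from the commonest whole step of low values. All 24396 rows above 0 gave whole reads (relative error below 1e-09). Reads of a row can be too low by a whole factor, mostly where it was above 0 in 1 library.

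Scaling (trimmed mean of M values, trimming 30% of log ratios and 5% of levels), the Clopper-Pearson interval on reads (95%), a minimum of 1 CPM and a 2-fold threshold were applied to the whole table. A floor of 3 reads was set as a stand-in for 0, although a row at 0 had no reads. Reads were also simulated for narciclasine 2 h against control 2 h with counting error alone, and 19100 rows passed the filter. There, 100% of 4-fold changes, put into a small part of the rows, and 0.302% of unchanged rows were called. Calls of 2-fold changes were not scored, and variation between libraries was not simulated. Recovery was checked on simulated RPKM, where 4 of 4 library sizes came back and 96.4% of rows gave their exact reads. Conditions were not tested, since each group held 1 library. An additive fit of treatment and time, with 1 residual degree of freedom, was not run.

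Genes to name were all codes of a fixed list of classes, the 10 unnamed frames with the highest mean RPKM and any row called. Members and lists were chosen with earlier results of these data known. The design had foreseen a protein match for nuclear copies; nucleotide stretches of 50 bases were used instead. Sequences and gene models are those of RefSeq TAIR10.1. Alternatives were other scalings, filters and thresholds, an assumed biological variation, log2 RPKM with a pseudocount of 1, the other control, and leaving out copied rows; other stretch lengths and other sums of rows were chosen after seeing the data. Scripts ran in Python 3.11.15 with matplotlib 3.10.9, scipy 1.17.1, pandas 2.3.3 and numpy 2.4.6.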

Additional observations from a re-analysis of the deposited data

Results flagged for a closer look

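The ratios of some mitochondrial rows and classes lay on opposite sides of 1 at the 2 times. Among those named here, only for the ribosomal RNA class did the counting intervals at both times exclude 1. That class is a sum, and neither of its rows with reads did so alone. The ratio of ATMG00020 at 2 h was 0.913 (0.806 to 1.03). The ratio of rrn18 was below 1 at both times, with 0.988 (0.91 to 1.07) at 12 h. Each value below is a log2 ratio of narciclasine to control at 12 h minus that at 2 h, from 1 library per group, so the difference between the times was not tested and its normal interval covers counting error alone. For ATMG00020 it was 0.51 (0.28 to 0.74), from a log2 ratio of -0.13 at 2 h and 0.38 at 12 h. For the ribosomal RNA rows together it was 0.33 (0.19 to 0.46) and for all mitochondrial rows 0.27 (0.14 to 0.39). For nad9 (ATMG00070) it was -1.94 (-3.45 to -0.42), from 0.36 at 2 h and -1.58 at 12 h, and for complex I rows together -1.03 (-1.89 to -0.18), from 0.32 and -0.71. The nad9 and complex I values share reads, as do those of ATMG00020, the ribosomal RNA rows and all rows.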

How the results depend on the processing

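Each group holds 1 library, so no replicate could be left out and there was no replicate block; treatment within time was not fitted. Of the alternative values, 235 were the same (a count within 1.5 times, another value within its spread or counting interval) and 50 moved, and 9 medians or summed ratios changed side. Low counts on mitochondrial rows limited the calls, which rested on 9 to 47 reads apart from ATMG00020, and 10 rows could be compared. The cause of the low counts was not tested. Calls were lost under several settings. The number of rows called lower at 2 h was 0 with a filter of 5 CPM, a 4-fold threshold, log2 RPKM plus 1 or control 12 h as control. At 12 h it was 0 with the filter of 5 CPM, the 4-fold threshold or log2 RPKM plus 1, and 1 without rows copied in the nucleus, which leaves out atp9. Between the controls it was 2 with library size scaling and 0 with the filter of 5 CPM, the 4-fold threshold, log2 RPKM plus 1 or an assumed variation of 0.2. Between the narciclasine libraries it was 0 with the filter of 5 CPM, the 4-fold threshold, log2 RPKM plus 1 or without copied rows, and ATMG00020 was no longer called higher (0 rows) with library size scaling, the 4-fold threshold or log2 RPKM plus 1. Medians at the 1 CPM filter rest on few rows and do not describe whole classes. They cover 10 mitochondrial rows, among them 4 respiratory, 2 ribosomal RNA and 2 unnamed frames (ATMG00690 and ATMG00660). Against control 12 h in place of control 2 h, the narciclasine 2 h median log2 ratio was -0.39 for all rows, -0.26 for respiratory rows (0.10 as reported), -0.57 for ribosomal RNA and 0.0015 for unnamed frames (-0.99 as reported). Against control 2 h, narciclasine 12 h had 0.58 for ribosomal RNA and -1.04 for unnamed frames. With no filter the median was -0.34 at 2 h and -0.68 at 12 h for unnamed frames, and -0.57 at 12 h for all rows (-0.41 as reported), which became -0.017 at 5 CPM and -0.20 with log2 RPKM plus 1. Between the controls, no filter gave -0.023 for all rows (0.15 as reported), -0.25 for respiratory rows (0.41) and -0.35 for unnamed frames, the 5 CPM filter 0.29 for all rows, and leaving out copied rows 0.29 for all rows and 0.88 for respiratory rows. Between the narciclasine libraries all rows had -0.05 as reported, -0.15 with no filter and 0.48 at 5 CPM, and respiratory rows -0.13 without copied rows. Without nad9, atp9 and nad4L the summed respiratory ratio was 0.913 at 12 h and 0.896 between the narciclasine libraries, and without ATMG00690 and ATMG00660 the unnamed frames had 1.13 between the controls (0.727 as reported). These rows were left out after their values were seen. The cause of these moves was not tested, apart from the fewer rows that the filters and omissions leave. As a share of summed RPKM, mitochondrial rows held 0.0127% in control 2 h, 0.0140% in control 12 h and 0.0139% in narciclasine 12 h. Without ribosomal RNA the share of reads was 0.00250%, 0.00209%, 0.00231% and 0.00165% in control 2 h, narciclasine 2 h, control 12 h and narciclasine 12 h.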
